A study of Mus musculus with 10 samples.

Results

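Collagens are the main structural proteins of the extracellular matrix, and 44 collagen genes were read from an RNA sequencing table of the mouse pancreas that holds 24421 gene symbols. Every gene whose symbol has the form of a collagen chain (Col, a type number, a, a chain number) was taken, whatever its level. The chains were placed by their known structure in 11 fibrillar genes, 8 basement membrane genes, 9 genes of networks and beaded filaments, and 16 others. Of these, 35 had enough counts for a test and 9 did not.

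The tissue was a piece of the pancreas tail of female mice aged 12 weeks, with 1 library per mouse. All mice carried Ptf1aCreER, a tamoxifen-inducible Cre recombinase driven by the acinar gene Ptf1a, and the nuclear reporter nTnG. Groups differed at Insr, the insulin receptor gene, with 0 floxed alleles in 3 mice labelled Insr WT (Insr w/w), 1 in 3 mice labelled Insr Het (Insr w/f) and 2 in 4 mice labelled Insr KO (Insr f/f). Cre can remove floxed sequence only in cells where its driver is active, and the fibroblasts and vessels in the same piece of tissue are not its intended target. The label counts 1 more WT mouse, which was not analysed here. WT-2404 and like names join a genotype to a mouse number.

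A collagen molecule is a helix of 3 chains, which are hydroxylated and folded in the endoplasmic reticulum, trimmed outside the cell and then cross-linked. Fibrillar collagens (types I, II, III, V, XI, XXIV and XXVII) build the rope-like fibrils of connective tissue, and type IV forms the sheet of the basement membrane under epithelium and around vessels. Type VI makes beaded filaments, types VIII and X make lattices, and others anchor or decorate fibrils or span the cell membrane. In the pancreas, fibroblasts and stellate cells are the known makers of the fibrillar types, while epithelium and endothelium contribute to type IV.

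Gene counts ranged from 11718559 to 19024351 per library. WT-2404 stood apart, with 16.3% of its counts from digestive enzymes against 60.8% to 80.3% in the other libraries. The collagen medians and several of the named collagen genes are therefore also given without it. Fold changes of pathway and marker genes are given only with all libraries. Levels are counts-per-million (CPM) after the trimmed-mean-of-M-values (TMM) scaling, whose factors ran from 0.596 to 3.54. Lists of levels follow the order WT-2404, WT-1860, WT-2067; Het-2066, Het-1770, Het-2042; KO-2079, KO-2070, KO-2124, KO-2126. Insr, the targeted gene, stood at 21.0 to 40.5 CPM in WT, 28.2 to 44.2 in Het and 22.7 to 35.5 in KO, with ranges that overlapped. A count per gene does not show which exons were read, and acinar cells are only a part of the tissue, so this does not check the labels. Acinar markers were present in all libraries, at a summed 21230 CPM in WT-2404 and 176088 to 653613 CPM in the others.

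The sequence just upstream of the start is shown for Col3a1, the member with the most counts, and Col8a1, a lattice collagen that was lower in KO and Het. The third is Col7a1, whose log2 fold change against WT was above 0 with all libraries (1.04 in KO, 0.56 in Het). Without WT-2404 it was smaller (0.51 and 0.04). Each of the 3 sequences is the 150 bases before the RefSeq start in GRCm38.p6, the build also called mm10, read 5′ to 3′ on the gene's strand. They lie at chr1:45311388-45311537 (plus strand), chr16:57754738-57754887 (minus strand) and chr9:108953436-108953585 (plus strand), and none overlaps an annotated exon. Capitals mark the word TATAAA in Col3a1. In the other two they mark the GC box GGGCGG, or its reverse complement where the match is on the opposite strand. The word CCAAT was searched as well and is absent from these stretches. Every search covered both strands, and matches may overlap.
Col3a1: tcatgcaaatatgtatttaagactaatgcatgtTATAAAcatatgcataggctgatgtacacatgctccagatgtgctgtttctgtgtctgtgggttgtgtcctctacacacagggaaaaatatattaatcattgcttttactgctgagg
Col8a1: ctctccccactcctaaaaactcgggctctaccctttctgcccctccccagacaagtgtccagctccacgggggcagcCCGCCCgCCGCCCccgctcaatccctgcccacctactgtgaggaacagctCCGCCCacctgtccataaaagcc
Col7a1: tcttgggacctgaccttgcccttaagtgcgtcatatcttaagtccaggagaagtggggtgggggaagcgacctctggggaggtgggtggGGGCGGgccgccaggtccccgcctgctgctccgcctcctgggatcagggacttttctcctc
The Col3a1 stretch is 37.3% G or C and has a TATAAA whose first base lies 117 bases before the start. Col8a1 is 64.7% G or C with 3 GC boxes, and Col7a1 is 64.0% G or C with 1. In windows of 300 bases (250 before to 50 after the start), a GC box was present in 23 of 38 collagen promoters of 35 genes (60.5%), against 35.7% of 32851 promoters in the RefSeq table. TATAAA was present in 5 of the 38 (13.2% against 13.6%) and CCAAT in 13 (34.2% against 37.4%). A match is a run of letters, not a measured binding site.

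Across the family, most collagen genes had lower levels in KO and Het pancreas than in WT, with the largest class median in the fibrillar chains, and none of these differences passed the main test. The median log2 fold change of the 35 tested genes was -1.03 in KO against WT, where the median of all 13688 genes tested was 0.03, and 27 of the 35 were below 0 (48.1% of all genes were). Het against WT gave the same median, -1.03 (0.0046 over all genes), with 29 of 35 below 0 (49.7% of all genes). KO and Het share the WT mice in these comparisons, so the 2 results are not independent. KO against Het gave a median of 0.04 (0.0079 over all genes).

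No collagen gene passed the threshold in edgeR's quasi-likelihood test, at a Benjamini-Hochberg adjusted p under 0.05 over all genes. Calls numbered 0 of 35 in each of the 3 comparisons, beside 0% of all genes, and the smallest adjusted p of any gene was 0.116 for KO and 0.184 for Het, each against WT. At an unadjusted p under 0.05, 20 of 35 collagen genes were lower in KO than in WT, where 13.9% of all genes were, and 2 were higher (9.61%). The other test, DESeq2, called 13 lower (5.27% of all genes) and 1 higher (2.14%) in KO against WT. In Het against WT, 19 were lower at that unadjusted p (11.6%) and 1 higher (8.26%), while DESeq2 called 7 lower (1.93%) and 1 higher (1.17%). In 15 of the 35, every KO library was below every WT library (9.15% of all genes), and in 2 every KO library was above (6.74%). For Het against WT, 15 (13.5%) and 2 (11.3%) did not overlap in these directions.

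Without WT-2404 the direction stayed and the size was smaller. The collagen median was then -0.75 in KO against WT, with 25 of 35 below 0 and 14 lower at an unadjusted p under 0.05 (5.29% of all genes). For Het against WT it was -0.78, with 30 of 35 below 0 and 9 lower at that p (3.61%). Leaving out WT-2067 instead, the WT library closest to the Het and KO libraries in enzyme share (74.1%), edgeR called 18 collagen genes for KO (13.6% of all genes) and 11 for Het (8.19%), at medians of -1.25 and -1.30. With the enzyme share of each library as a covariate, the medians were -0.59 and -0.56, and 5 (3.24% of all genes) and 2 (1.61%) members were lower at an unadjusted p under 0.05. These counts at an unadjusted p, with a covariate or without a library, were chosen after the data were seen.

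**Figure D1:**
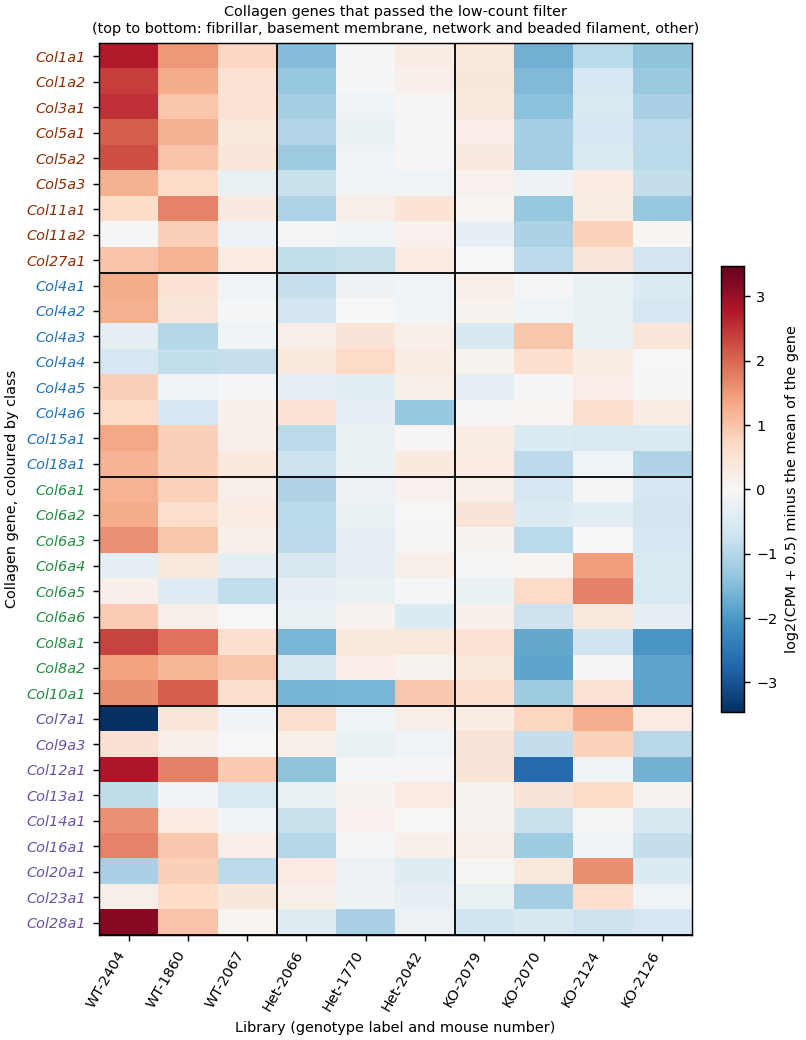
Level of the 35 tested collagen genes in each of the 10 libraries, as log2(CPM + 0.5) minus the mean of the gene over libraries; rows are grouped by class and columns by genotype. Red (higher) fills most fibrillar rows of WT-2404 and WT-1860, while Col7a1 is at its lowest in WT-2404.

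Fibrillar collagens showed the largest class median, at -1.92 for KO and -1.79 for Het, each against WT, and all 9 tested members were below 0 in both. In KO against WT, 7 of the 9 were lower at an unadjusted p under 0.05 (13.9% of all genes). DESeq2 called 5 of them lower (5.27% of all genes). Without WT-2404 the medians were -1.26 and -1.17, again with 9 of 9 below 0 in each. At that unadjusted p, 6 and 4 members were then lower (5.29% and 3.61% of all genes).

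Col3a1 (chr1:45311538-45349706, plus strand), the single chain of type III collagen, stood at 1923 CPM in WT-2404, with 655 for WT-1860 and 473 for WT-2067. The Het libraries held 149.9, 299.5 and 339.9 CPM, and the KO libraries 425, 123, 230.3 and 153. All WT values lay above all Het and KO values, the nearest being WT-2067 and KO-2079. The log2 fold change was -2.13 ± 0.55 (SE) for KO against WT (edgeR adjusted p = 0.116, n = 4 and 3; DESeq2 adjusted p = 0.00504) and -1.95 ± 0.61 in Het against WT. Without WT-2404 these were -1.26 and -1.08.

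Col1a1 (chr11:94936224-94953042, plus strand) and Col1a2 (chr6:4504814-4541544, plus strand) encode the chains of type I collagen, the bulk protein of scar and fibrosis. Col1a1 measured 1093, 458 and 266 CPM in WT-2404, WT-1860 and WT-2067, and 56.4, 153 and 193 in Het. The KO libraries held 211, 50.5, 84.4 and 61.8 CPM. No Het or KO library reached the lowest WT library. The mean was 605 ± 433 CPM (SD, n = 3) in WT and 102 ± 73.9 (SD, n = 4) in KO, a 5.95-fold difference, and on the log2 scale -2.57 ± 0.62 (SE), with an adjusted p of 0.116 in edgeR and 0.0195 in DESeq2. Het against WT gave -2.17 ± 0.68. Leaving out WT-2404 gave -1.81 ± 0.59 for KO and -1.40 ± 0.63 for Het.

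Col1a2 followed the same order, at 950.1, 441 and 258 CPM in WT, 71.9, 175 and 205 in Het, and 237, 62.1, 121 and 74.3 in KO. Again the groups did not overlap with WT. Its log2 fold changes were -2.15 ± 0.56 in KO and -1.87 ± 0.61 in Het, both against WT, and -1.48 and -1.19 without WT-2404.

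Col5a1 and Col5a2, chains of type V collagen, which nucleates and limits the width of type I fibrils, were lower by a similar amount. Col5a1 stood at 163, 89.7 and 49.3 CPM in WT, 18.5, 32.3 and 36.4 in Het, and 44.3, 16.9, 25.1 and 19.8 in KO. All Het and KO libraries were below all WT libraries, and the log2 fold changes were -1.92 ± 0.43 (edgeR adjusted p = 0.116) and -1.79 ± 0.47 (adjusted p = 0.184). Col5a2, named after its values were seen, gave -1.90 ± 0.49 and -1.80 ± 0.53, or -1.19 and -1.08 without WT-2404. The third type V chain, Col5a3, was closer to 0, at -0.77 ± 0.35 and -1.03 ± 0.38, with overlapping ranges.

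The remaining fibrillar genes were low. Col27a1 averaged 12.4 CPM in WT and 5.71 in KO, and Col11a1, mainly known from cartilage, 2.01 and 0.443. Col11a2 averaged 0.771 and 0.579 CPM with a log2 fold change of -0.27 ± 0.76. Col24a1 had 40 counts in all libraries together, of which 28 lay in WT-2404, and was not tested. Col2a1, the main collagen of cartilage, had 0 counts in every library, which allows up to 0.0501 to 0.395 CPM (3 counts) depending on the library.

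**Figure D2:**
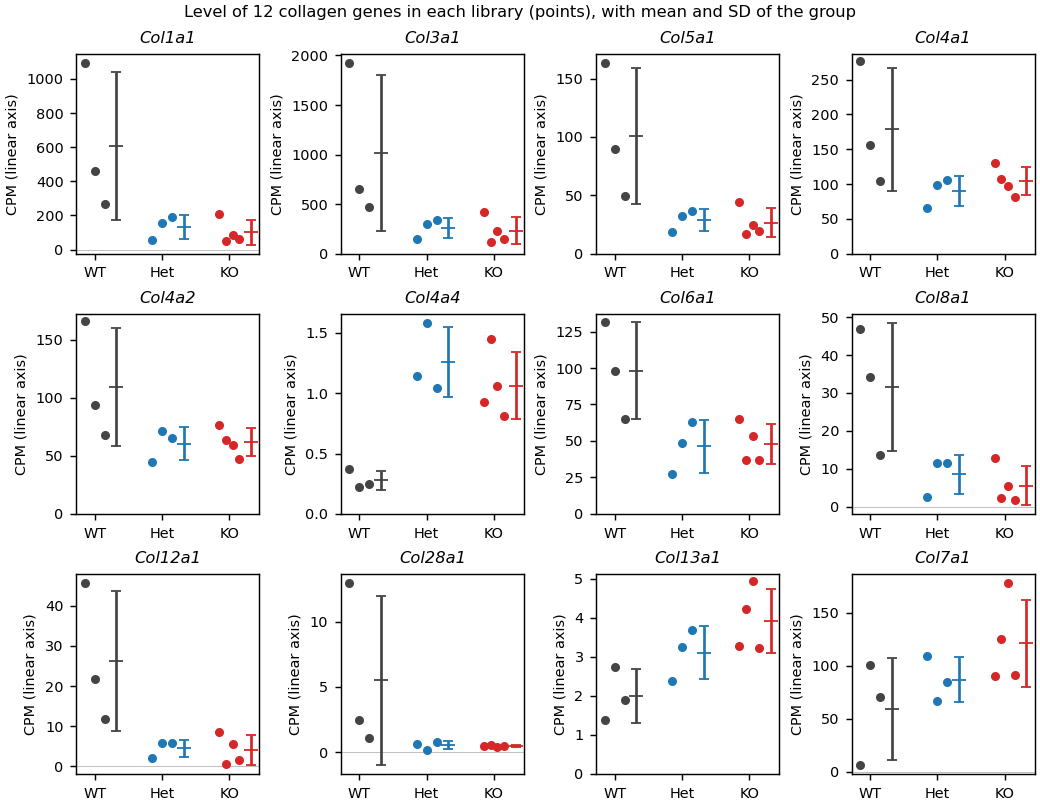
Level of 12 collagen genes in CPM on a linear axis from 0, with 1 point per library and the mean and SD of the 3 WT, 3 Het and 4 KO libraries beside the points. Col1a1, Col3a1, Col5a1, Col8a1, Col12a1 and Col28a1 have all Het and KO points below all WT points, and Col4a4 has them above.

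Basement membrane collagens differed less, with class medians of -0.57 in KO and -0.74 in Het, against WT. Of the 8 members, 5 were below 0 in KO and 6 in Het. At an unadjusted p under 0.05, 4 were lower in each (13.9% and 11.6% of all genes). Without WT-2404 the medians were -0.13 and -0.25, and the counts at that p were 2 and 1 (5.29% and 3.61% of all genes).

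Col4a1 and Col4a2 make the common type IV molecule of all basement membranes. Col4a1 (chr8:11198423-11312826, minus strand) measured 276, 156 and 104 CPM in WT, 65.3, 99.5 and 106 in Het, and 129.9, 107, 97.2 and 82.0 in KO. Here the groups overlapped, since WT-2067 lay below KO-2079 and KO-2070. The log2 fold change was -0.78 ± 0.32 in KO (edgeR adjusted p = 0.178) and -0.99 ± 0.35 in Het, and without WT-2404 it was -0.32 and -0.51. Col4a2 (chr8:11312805-11449287, plus strand) gave -0.83 ± 0.31 and -0.85 ± 0.33, with levels of 166, 93.7 and 67.7 CPM in WT and 44.4 to 76.5 in the other libraries.

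Types XV and XVIII are collagens with heparan sulfate or chondroitin sulfate chains that sit at the outer face of basement membranes, and the end of type XVIII is released as endostatin. Col15a1 stood at 96.4, 66.5 and 42.5 CPM in WT, 19.7, 32.3 and 38.9 in Het, and 45.1, 26.7, 25.9 and 26.7 in KO. Only KO-2079 reached into the WT range. Its log2 fold change was -1.14 ± 0.31 in KO and -1.18 ± 0.34 in Het. Col18a1 measured 47.0, 36.9 and 26.6 CPM in WT against 12.0 to 26.2 in Het and 9.70 to 24.9 in KO, with no overlap and log2 fold changes of -1.19 ± 0.35 and -0.98 ± 0.38.

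Col4a3 and Col4a4, the chains of the specialised type IV network of kidney and lung, were above 0 in both comparisons, unlike the other members of this class. Col4a4 (chr1:82448423-82586849, minus strand) stood at 0.368, 0.219 and 0.245 CPM in WT, 1.14, 1.58 and 1.04 in Het, and 0.928, 1.45, 1.06 and 0.809 in KO. Every Het and KO library was above every WT library, at low counts of 4 to 22 per WT library and 8 to 23 per other library. The log2 fold change was 1.84 ± 0.49 in KO (edgeR adjusted p = 0.116, DESeq2 adjusted p = 0.0226) and 2.09 ± 0.51 in Het (0.184 and 0.0247), and 2.14 and 2.40 without WT-2404. Col4a3, its neighbour 71 bases away on the opposite strand, was named after its values were seen and measured 0.109 to 0.613 CPM in WT, 0.860 to 1.12 in Het and 0.309 to 1.84 in KO. It gave 1.13 ± 0.70 and 1.23 ± 0.73, and KO and WT overlapped. Col4a5 averaged 7.09 CPM in WT, 5.21 in Het and 5.55 in KO, and Col4a6 1.41, 0.955 and 1.51, with log2 fold changes of 0.07 ± 0.62 for KO and -0.63 ± 0.68 for Het.

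Network and beaded filament collagens had class medians of -1.03 in KO and -1.13 in Het. Of 9 members, 7 and 8 were below 0. At an unadjusted p under 0.05, 5 and 4 were lower (13.9% and 11.6% of all genes). Without WT-2404 the medians were -0.75 and -0.79, and the counts at that p were 3 and 2 (5.29% and 3.61% of all genes).

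Type VI collagen forms beaded filaments next to cells, from chains of Col6a1, Col6a2 and Col6a3. Col6a1 measured 132, 97.8 and 65.1 CPM in WT, 27.0, 48.9 and 63.2 in Het, and 64.9, 36.6, 53.5 and 37.2 in KO. The groups did not overlap, but WT-2067 and KO-2079 differed by less than 1 CPM. The log2 fold changes were -1.03 ± 0.33 (edgeR adjusted p = 0.125, DESeq2 adjusted p = 0.0433) and -1.08 ± 0.36. Col6a3 showed -1.33 ± 0.35 and -1.44 ± 0.38, from 78.6, 51.2 and 29.3 CPM in WT to 13.2 to 28.3 in KO and 13.5 to 24.7 in Het. Col6a2, at 62.2 to 123 CPM in WT, 32.5 to 69.1 in KO and 26.2 to 51.6 in Het, overlapped between WT and KO through KO-2079.

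Col8a1, a short-chain collagen of vessel walls and other sheets, had the largest difference of this class for KO against WT. It stood at 47.0, 34.1 and 13.5 CPM in WT, 2.63, 11.6 and 11.5 in Het, and 12.8, 2.24, 5.30 and 1.82 in KO. All Het and KO values were below the lowest WT value, with log2 fold changes of -2.46 ± 0.68 (edgeR adjusted p = 0.117, DESeq2 adjusted p = 0.0381) and -1.88 ± 0.74. Col8a2 averaged 3.52 CPM in WT and 0.748 in KO, and Col10a1 4.70 and 1.10, with log2 fold changes for KO against WT of -2.06 ± 0.79 and -1.96 ± 1.03. For Het against WT, Col10a1 had the largest difference of the class, at -2.10 ± 1.15, with ranges that overlapped.

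Col6a4 and Col6a5, alternative type VI chains, were both highest in KO-2124. Col6a5 measured 1.64, 0.875 and 0.552 CPM in WT, 1.05, 1.12 and 1.29 in Het, and 1.11, 2.50, 5.86 and 0.809 in KO. Its highest value, in KO-2124, was above all other libraries, and KO-2070 was also above every WT and Het library. The remaining KO values, 1.11 and 0.809, lay within the WT range. The log2 fold change for KO against WT was 1.30 ± 0.63, with 0.42 without KO-2124 and 1.87 without WT-2404. Col6a4 measured 0.184, 0.602 and 0.184 CPM in WT, 0.0877, 0.186 and 0.491 in Het, and 0.309, 0.395, 1.84 and 0.101 in KO, again with KO-2124 on top. Without KO-2124 it did not pass the low-count filter, so its fold changes are only a description. Col6a6, the other alternative chain, averaged 4.10 CPM in WT, 2.53 in Het and 2.81 in KO.

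**Figure D3:**
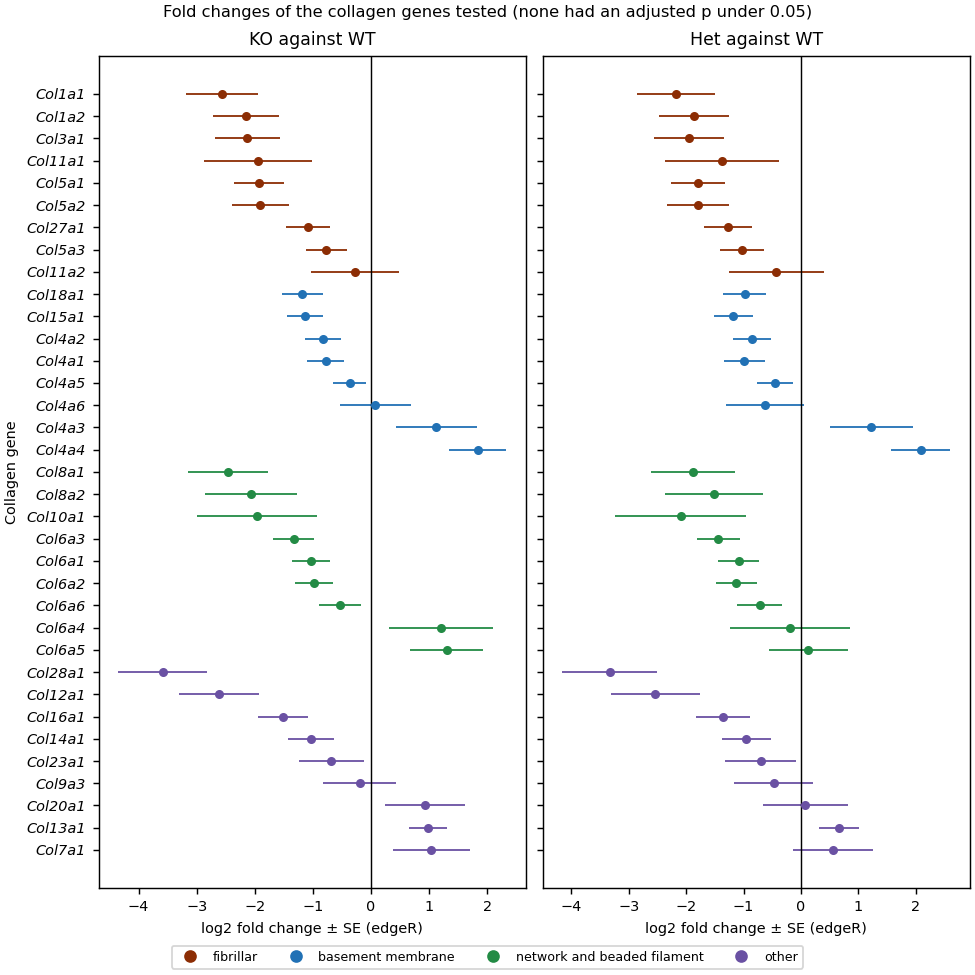
Log2 fold changes of the 35 tested collagen genes with their standard errors from edgeR, for KO against WT (left) and Het against WT (right), coloured by class and ordered within class. All 9 fibrillar genes lie left of 0 in both panels, and Col4a3 and Col4a4 lie right of 0.

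The 16 remaining genes include fibril-associated, anchoring and membrane collagens, of which 9 were tested, with class medians of -0.68 in KO and -0.70 in Het, each -0.35 without WT-2404. Col12a1, Col14a1 and Col16a1 are fibril-associated collagens that bind the surface of other fibrils. Col12a1 (chr9:79598991-79718831, minus strand) stood at 45.6, 21.7 and 11.7 CPM in WT, 2.02, 5.78 and 5.77 in Het, and 8.47, 0.527, 5.62 and 1.62 in KO. No Het or KO library reached the WT range, and the log2 fold changes were -2.62 ± 0.70 and -2.54 ± 0.77, or -1.93 and -1.85 without WT-2404. Col16a1 measured 31.7, 18.0 and 10.9 CPM in WT, 4.39 to 10.4 in Het and 3.69 to 10.8 in KO, just below WT-2067, and gave -1.51 ± 0.43 and -1.36 ± 0.47. Col14a1 overlapped, at 122, 49.2 and 38.0 CPM in WT, 23.3 to 44.7 in Het and 23.6 to 44.0 in KO. Its log2 fold change of -1.04 ± 0.39 for KO against WT was -0.35 without WT-2404.

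Col28a1 (chr6:7997808-8192617, minus strand), a collagen known from the sheath of peripheral nerves, had the largest fold change of the tested members with all libraries in the fit. It stood at 12.9, 2.46 and 1.10 CPM in WT, 0.614, 0.186 and 0.798 in Het, and 0.433, 0.527, 0.415 and 0.505 in KO. All WT libraries were above all others, but WT-2404 was over 5 times as high as the next, and the KO libraries held only 4 to 9 counts each. The low-count filter keeps a gene that is high in 1 group alone, as Col28a1 was in WT, so its rank among the tested members is only a description. The log2 fold change was -3.59 ± 0.76 in KO (edgeR adjusted p = 0.116, DESeq2 adjusted p = 0.00163) and -3.33 ± 0.83 in Het, and -1.92 ± 0.62 and -1.67 ± 0.66 without WT-2404. Summed Schwann cell markers, of which 2 of 5 passed the filter, spanned 2.42 to 5.25 CPM in WT, 1.68 to 4.60 in Het and 0.910 to 3.18 in KO. In WT-2404 they stood at 2.42 CPM, the lowest WT value, where Col28a1 was highest.

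Col7a1 (chr9:108953586-108984875, plus strand), the chain of the anchoring fibrils that tie epithelial basement membrane to the connective tissue beneath, did not follow the fibrillar genes. It measured 6.28, 100.4 and 70.0 CPM in WT, 109, 66.5 and 85.0 in Het, and 89.7, 125, 178 and 91.0 in KO. WT-2404 was lower than every other library by more than 10 times, and the other 9 overlapped. The log2 fold change was 1.04 ± 0.67 for KO (edgeR adjusted p = 0.354) and 0.56 ± 0.70 for Het (0.663), both against WT, and without WT-2404 it was 0.51 ± 0.33 and 0.04 ± 0.34. WT-2404 was also the library with the lowest sum of acinar markers, at 21230 CPM. The next lowest sums, 176088 CPM in WT-1860 and 215073 CPM in KO-2124, stood beside Col7a1 levels of 100.4 and 178 CPM. A link between Col7a1 and acinar content was not tested. With the enzyme share as a covariate the log2 fold changes of Col7a1 were 0.39 in KO and -0.25 in Het. Scaling by library size alone gave -0.23 in Het. Counts alone do not say which cells carried Col7a1.

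Col13a1, a membrane-spanning collagen, was the other member higher in KO at an unadjusted p under 0.05 beside Col4a4, and is named after its values were seen. It stood at 1.37, 2.73 and 1.90 CPM in WT, 2.37, 3.26 and 3.68 in Het, and 3.28, 4.22, 4.93 and 3.23 in KO. All KO libraries were above all WT libraries, while Het overlapped with WT, and the log2 fold changes were 0.99 ± 0.33 (edgeR adjusted p = 0.127) and 0.66 ± 0.35. Col20a1 measured 0.702 to 4.16 CPM in WT, 1.47 to 2.72 in Het and 1.42 to 7.52 in KO, with KO-2124 on top as for Col6a4 and Col6a5. Col9a3 and Col23a1 averaged 1.12 and 1.39 CPM in WT, with log2 fold changes for KO against WT of -0.20 and -0.68. The 6 others with counts, not tested, held 7 to 23 counts over all libraries together (Col9a2, Col17a1, Col19a1, Col22a1, Col25a1 and Col26a1), and Col9a1 had 0 counts.

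No collagen gene separated KO from Het libraries, and few of all genes did. In that comparison edgeR called 0 of 35 and DESeq2 0, beside 0% of all genes in each. At an unadjusted p under 0.05 there were 0 (0.351% of all genes were lower and 0.402% higher). In 0 of 35 the ranges did not overlap (1.16% and 1.3%). These counts of 0 are near the shares of all genes. Fold changes ran from -0.58 (Col8a1) to 1.39 (Col6a4) on the log2 scale, and 15 of 35 were below 0 (48.5% of all genes). The smallest unadjusted p values belonged to Col6a5, at 1.18 ± 0.65, Col6a4, at 1.39 ± 0.96, and Col20a1, at 0.86 ± 0.70, each with an edgeR adjusted p of 1.0. Without KO-2124, Col6a5 and Col20a1 gave 0.29 and 0.12, and Col6a4 did not pass the low-count filter. For the abundant chains this comparison gave -0.40 ± 0.61 for Col1a1, -0.18 ± 0.55 for Col3a1, 0.21 ± 0.33 for Col4a1 and 0.05 ± 0.33 for Col6a1. Even differences well above those standard errors could go undetected.

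The make-up of the collagen pool is given as a description, with no test. All collagen genes together held 1.96% of the gene counts of WT-2404, 0.403% for WT-1860 and 0.147% for WT-2067, 0.0574% to 0.118% in Het and 0.0437% to 0.151% in KO. Among the counts that were not from digestive enzymes, the share was 2.34%, 1.03% and 0.568% in WT, 0.220% to 0.468% in Het and 0.220% to 0.548% in KO. On the former scale WT-2067 lay within the KO range, and on the latter every WT library was above every other. Fibrillar genes made up 78.0%, 67.6% and 66.3% of the collagen counts in WT, 46.4%, 59.0% and 59.9% in Het, and 60.9%, 37.2%, 45.9% and 45.9% in KO, so that all Het and KO libraries were below WT. Basement membrane genes made up 10.8% to 14.9% in WT, 17.8% to 21.7% in Het and 17.6% to 29.0% in KO. Col7a1 alone made up 0.113% of the collagen counts in WT-2404 and 16.6% in KO-2070, where it was the collagen with the most counts. In each of the other 9 libraries Col3a1 had the most. The Wilson 95% intervals of these class shares were at most 2.51 percentage points wide and cover counting error only.

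**Figure D4:**
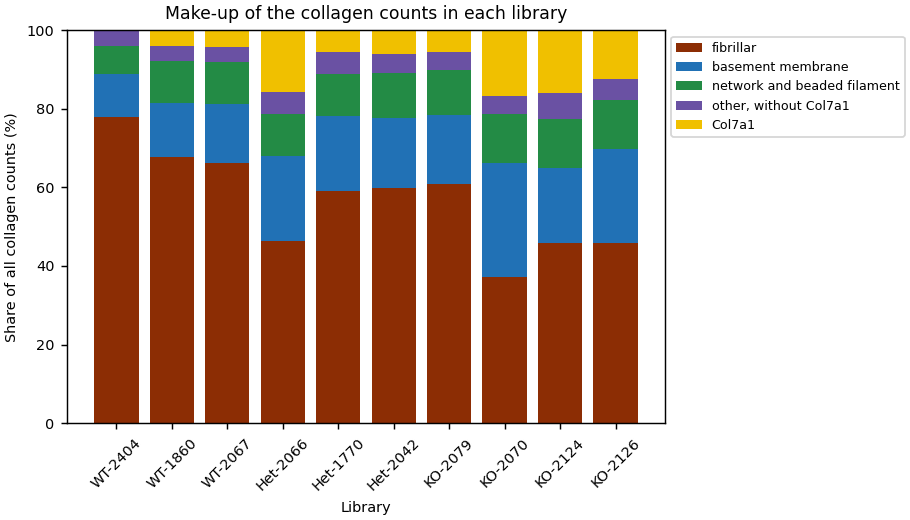
Share of all collagen counts, in percent, taken by each class in each of the 10 libraries (stacked bars, with Col7a1 apart from the other members of its class). The fibrillar part is 66.3% to 78.0% in the 3 WT libraries and 37.2% to 60.9% in the 7 others.

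Per kilobase of transcript, which allows levels of different genes to be set side by side, Col3a1 was highest in every group, at a mean CPM per kilobase of 183 in WT, 47.3 in Het and 41.9 in KO. Col1a2 (103, 28.2 and 23.1) and Col1a1 (102, 22.7 and 17.2) came next, and type IV and VI chains were lower, with Col4a1 at 27.0, 13.6 and 15.7 and Col6a1 at 24.0, 11.3 and 11.7. Col7a1 stood at 6.37, 9.37 and 13.1 CPM per kilobase. By this measure it ranked 23rd among the collagens in WT-2404, 9th in both other WT libraries, and between 3rd and 8th in the Het and KO libraries.

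Ratios of 2 chains within a library do not depend on how libraries are scaled, and 6 pairs were compared. Chains of the same molecule kept close ratios over the 10 libraries: Col4a1 to Col4a2 counts spanned 1.39 to 1.74, Col6a1 to Col6a2 0.940 to 1.38, and Col5a1 to Col5a2 1.04 to 1.36. Col4a1 and Col4a2 start head to head, with a 22-base overlap of their annotated spans. Col1a1 relative to Col1a2 was 1.15, 1.04 and 1.03 in WT, 0.784, 0.875 and 0.941 in Het, and 0.891, 0.813, 0.696 and 0.831 in KO. All KO and Het libraries were below all WT libraries. The log2 difference in KO against WT was -0.41 (exact permutation test, two-sided, p = 0.0286, the smallest that 4 against 3 mice can give; 0.114 adjusted over the 6 pairs).

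Type IV relative to type I was higher outside WT. The ratio of Col4a1 to Col1a1 counts was 0.253, 0.341 and 0.392 in WT, 1.16, 0.649 and 0.549 in Het, and 0.617, 2.13, 1.15 and 1.33 in KO. No Het or KO library fell within the WT range. The log2 difference was 1.88 in KO (exact permutation p = 0.0571, adjusted 0.114) and 1.20 in Het (exact permutation p = 0.1, the smallest that 3 against 3 allow; adjusted 0.3). Col3a1 relative to Col1a1 differed by 0.54 in KO against WT (exact permutation p = 0.0571, adjusted 0.114). No ratio passed an adjusted p of 0.05 in any comparison, and at an unadjusted p under 0.05 there was 1 of 6 in KO against WT, 0 in Het against WT and 1 in KO against Het (Col4a1 to Col4a2, 0.19, exact permutation p = 0.0286, adjusted 0.171).

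**Figure D5:**
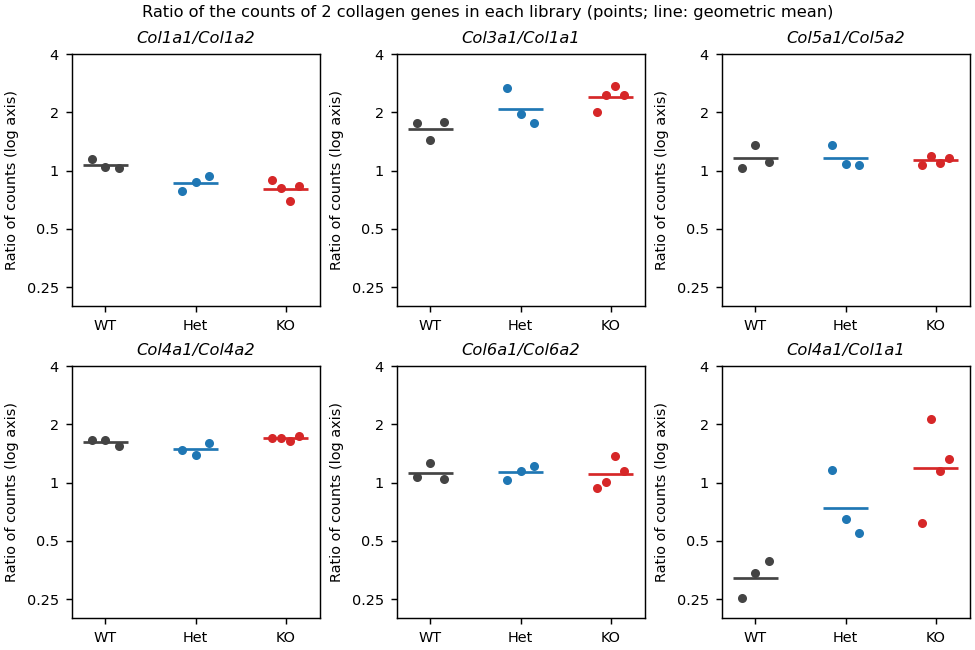
Ratio of the counts of 2 collagen genes in each library on a log axis, for 6 pairs, with 1 point per library and the geometric mean of the group as a line. Col4a1/Col1a1 is 0.253 to 0.392 in WT and 0.549 to 2.13 in the other 7 libraries, while Col4a1/Col4a2 stays between 1.39 and 1.74 in all 10.

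Some enzymes and chaperones that modify collagen chains had lower levels as well, and none passed the threshold. Of 19 genes for chain modification and folding, all tested, edgeR called 0 in KO against WT, 7 were lower (13.9% of all genes) and 2 higher (9.61%) at an unadjusted p under 0.05, and the median log2 fold change was -0.41 (-0.52 in Het against WT). Serpinh1, the collagen chaperone HSP47, averaged 116 ± 59.0 CPM (SD, n = 3) in WT, 40.2 ± 12.0 (n = 3) in Het and 44.3 ± 10.5 (n = 4) in KO, with a log2 fold change of -1.38 ± 0.34 for KO against WT. Plod2, a lysyl hydroxylase that prepares chains for cross-links, gave -1.83 ± 0.41, and P4ha3, a prolyl hydroxylase subunit, -2.78 ± 0.63. P4ha3 was low, at a mean of 1.57 CPM in WT, 0.383 in Het and 0.207 in KO. Its KO libraries held 0 to 0.303 CPM, where 3 counts are 0.138 to 0.395 CPM. The low-count filter keeps a gene that is high in 1 group alone, as P4ha3 was in WT, so its fold change is only a description. P3h4, a partner of the lysyl hydroxylases, was on the other side of 0, at 0.70 ± 0.22.

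Genes for propeptide removal and cross-linking had a median between that of the fibrillar class and that of the network and beaded filament class. Of 13, 12 were tested, edgeR called 0, 9 were lower at an unadjusted p under 0.05 in KO (13.9% of all genes) and 8 in Het (11.6%), and the median was -1.22 in each. Lox, the lysyl oxidase that starts cross-links, averaged 45.3 ± 37.4 CPM in WT, 11.9 ± 3.53 in Het and 7.97 ± 4.66 in KO. Its WT libraries ranged from 16.3 to 87.6 CPM, and the log2 fold change was -2.48 ± 0.56 for KO against WT. Loxl1, Loxl2 and Pcolce, an enhancer of propeptide cleavage, gave -1.48 ± 0.41, -1.45 ± 0.33 and -1.22 ± 0.30. The 8 collagen receptor genes had a median of -0.11 in KO and -0.16 in Het, with 0 called and 3 of 8 lower at that p in each, beside the same shares of all genes. Mrc2, a receptor for uptake of collagen fragments, gave -1.56 ± 0.38, Lair1, an inhibitory collagen receptor of leukocytes, -1.38 ± 0.43 and Itga2, an integrin chain, -2.21 ± 0.68, while Ddr1, a receptor kinase of epithelium, gave -0.24 ± 0.22.

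Markers of the cells that make collagen also stood at different levels. The 10 fibroblast markers, none of them a collagen, summed to 374 to 705 CPM in WT, 311 to 358 in Het and 276 to 453 in KO. Of these, 8 of 10 in KO and 10 of 10 in Het were below 0, with medians of -0.61 and -0.78. The members were unequal in KO against WT. Postn, Lum, Thy1, Pdpn and Fap gave -2.15, -1.70, -1.58, -1.36 and -0.84. Pdgfra, Pi16, Dpt, Dcn and Gli1 gave -0.37, -0.25, -0.15, 0.0029 and 0.018. In whole tissue, fewer cells of a type and less RNA per cell cannot be told apart. Collagen counts per fibroblast-marker count were 7.87, 5.42 and 4.48 in WT, 2.22, 3.34 and 3.99 in Het, and 4.28, 2.66, 2.44 and 2.66 in KO, so all WT libraries were above all others. With the mean log2 CPM of the fibroblast markers as a covariate, however, the collagen median was -0.15 in KO and -0.06 in Het against WT. In each, 0 members were lower at an unadjusted p under 0.05 (1.14% and 0.636% of all genes). This covariate weighs the 10 markers alike, while Dcn was the largest part of the marker sum in every library. Some of the markers fell as far as the collagens, so this fit cannot tell fibroblast number from fibroblast state. Col4a4 was higher at that p in both fits, beside Col13a1, Col6a5 and Col6a4 in KO (1.59% of all genes were higher in each).

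Other marker lists had unequal levels too, and their part in the collagen values was not tested. Mural and stellate markers summed to 67.3 to 108 CPM in WT, 58.9 to 64.9 in Het and 34.3 to 78.3 in KO, and duct markers to 253 to 452, 115 to 237 and 88.0 to 205. Macrophage markers summed to 210 to 915, 111 to 178 and 75.8 to 250 CPM, with 6 of 6 below 0 in KO and a median of -1.70. The value of 915 CPM was that of WT-2404, beside 344 in WT-1860 and 210 in WT-2067. Endothelial markers, from cells that also make type IV collagen, summed to 130 to 199, 177 to 209 and 124 to 251 CPM, with 0 of 6 below 0. No list had a marker at 0 in all libraries.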

How the data were processed

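The 44 collagen genes, their classes and the lists of pathway and marker genes were chosen with earlier results of these data known. A further part of the genotype, shared by all groups, is not reported here. Values are raw counts per gene symbol as the authors deposited them, whole numbers in 1 column per mouse. Per the labels' protocols, frozen tissue was pulverised and RNA taken with a column kit. The submitters' processing notes name DRAGEN, STAR, Cufflinks and the build mm10, with no versions; the counting tool, its annotation and its use of strand are not given in the sources used here, so genes that overlap others are uncertain. Exons shared with another gene exceeded 5% of the length in 2 members, Col9a3 (6.07%) and Col4a3 (5.65%).

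The 2 rows for reads outside genes and ambiguous reads (2.59% to 8.71% and 0.101% to 0.584% of all counts) stayed out, and 0 columns were left unmapped. In R 4.3.3, edgeR 4.0.16 fitted all 10 libraries in 1 model (TMM factors, filterByExpr with a minimum count of 10, robust quasi-likelihood, 13688 genes). Every two-sided p-value was adjusted over those genes by Benjamini-Hochberg, with a threshold of 0.05. This filter keeps a gene that is high in 1 group alone. DESeq2 1.42.0, other scalings and filters, covariates and leaving out each library were alternatives. Chain ratios used exact permutation tests over mice (scipy 1.17.1). Coordinates and lengths come from GENCODE M21 (mm10), with the protein-coding transcript of the longest coding sequence for levels per kilobase, and promoters from RefSeq on GRCm38.p6.

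Libraries were separate mice, and no pair within a group agreed within sampling noise. Values in each library are given for up to 4 genes per class with the most counts, for genes called in any comparison, and for the 3 with the smallest p in each comparison. From each pathway list up to 4 genes with the smallest p in KO against WT are named. Reads carried no molecular identifiers and may repeat a molecule, so intervals and the limit of 3 counts cover counting error only.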

Additional observations from a re-analysis of the deposited data

Results flagged for a closer look

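In the KO group of 4 libraries, 4 of 35 measures had 1 library far from the rest by Dixon's test at its 95% level, where chance alone gives about 1.75. Col15a1 stood at 45.1 CPM in KO-2079 and 25.9 to 26.7 in the other KO libraries. Col6a4 stood at 1.84 CPM in KO-2124 and 0.101 to 0.395 in the others. Collagen counts per fibroblast-marker count were 4.28 in KO-2079 and 2.44 to 2.66 in the others. Network and beaded filament genes made up 11.4% of the collagen counts in KO-2079 and 12.4% to 12.5% in the others. No reason for these was tested.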

How the results depend on the processing

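The collagen medians against WT stayed below 0 under every alternative run for them. Over the libraries left out in turn, the median ran from -1.25 to -0.75 in KO against WT, -1.31 to -0.78 in Het against WT and -0.15 to 0.18 in KO against Het. The number of collagen genes called ran from 0 to 18 in KO against WT and 0 to 11 in Het against WT, the highest without WT-2067 (13.6% and 8.19% of all genes). Members lower at an unadjusted p under 0.05 numbered 14 to 21 and 9 to 19, the lowest without WT-2404 (5.29% and 3.61% of all genes). Members lower with ranges that did not overlap numbered 13 to 22 and 15 to 23, the highest without WT-2067 in both. With fewer libraries in a group the ranges of any gene separate more easily. Shares of all genes are given only for the fit with all libraries (9.15% and 13.5%), so these range counts are a description. All these counts were added after the data were seen. DESeq2 called 14 and 8 collagen genes in KO and Het against WT. Scaling by library size alone called 20 (20.8% of all genes) and 21 (22.9%), with medians of -2.36 and -2.68, but moved the median of all genes to -1.17 and -1.36. It gave 9 members lower with ranges that did not overlap for KO and 20 for Het, again without a share of all genes. With the enzyme share as a covariate 5 and 2 members were lower at an unadjusted p under 0.05, and with the fibroblast markers as a covariate 0 and 0, at medians of -0.15 and -0.056. KO against Het gave 0 calls under each alternative.

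Of 45 fold changes of named genes, 38 did not change sign under any alternative in which the gene was tested. Col6a4 was not tested without KO-2124. With the fibroblast covariate, Col4a1 and Col14a1 in KO against WT were 0.020 and 0.19, and in Het against WT Col14a1 was 0.19 and Col6a4 1.14. With the enzyme share as a covariate, Het against WT gave -0.25 for Col7a1, 0.000429 for Col14a1 and -0.12 for Col20a1, and with library size alone -0.23 for Col7a1, -1.50 for Col6a5 and -1.06 for Col20a1. Leaving out single libraries took Het against WT from -0.14 to 0.71 for Col6a5, -1.15 to 0.54 for Col6a4 and -0.35 to 1.30 for Col20a1. The log2 ratio of Col5a1 to Col5a2 then ran from -0.12 to 0.074, -0.10 to 0.12 and -0.11 to 0.065 in KO against WT, Het against WT and KO against Het, and that of Col6a1 to Col6a2 from -0.13 to 0.062, -0.047 to 0.094 and -0.14 to 0.046. The cause was not tested. No paired analysis was possible because the mouse numbers are not shared between groups. Members with few counts, such as Col4a4, Col6a4 and Col28a1, are limited by depth.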
